A study of Mus musculus with 14 samples.

Results

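The genes described here encode 10 secreted proteins of the hepatic acute-phase response: the serum amyloid A genes Saa1, Saa2, Saa3 and Saa4, the orosomucoid genes Orm1, Orm2 and Orm3, and Lcn2, Hp and Hpx. They were picked by name from the 24411 genes in the deposited count files, and all 10 passed the filter on low counts that left 9644 genes tested. The list was drawn up with the counts of these genes in these same libraries known. Their levels and differences are therefore a description of the libraries, and no p-value below is independent support for a change.

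The libraries were made from livers of male littermate mice aged 5 to 7 months. WT mice were Rbbp5 flox/flox; Alb-Cre -/-, and LKO mice were Rbbp5 flox/flox; Alb-Cre +/-, so both genotypes carried the floxed alleles and only the LKO mice carried Cre under the albumin promoter, which deletes in hepatocytes and leaves most other cells of the liver with an intact gene. Mice received tunicamycin at 0.05 mg/kg by intraperitoneal injection, in 500 µl of 3% DMSO in PBS, or the same volume of vehicle, at 9 to 10 in the morning, and livers were collected 8 h later. The labels list 3 WT and 4 LKO libraries with vehicle, and 3 WT and 4 LKO libraries after tunicamycin. The reads of LKO vehicle 3 and LKO vehicle 4 were close to sampling noise of each other, with a chi-square over genes of 1.12 per degree of freedom against 3.38 to 25.9 in the other 17 replicate pairs. Whether both came from 1 mouse is not stated, and their reads were summed and counted as 1 sample, so 13 samples entered the fit. Nothing states more than that these are separate samples, so the p-values measure the spread between these samples.

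As background, acute-phase proteins are made mainly by hepatocytes and released into the blood within hours of infection, injury or another inflammatory stimulus. Interleukin-6 acting through STAT3, together with interleukin-1 acting through NF-kB and C/EBP factors, is the best-known signal for their genes. Tunicamycin blocks N-linked glycosylation and so loads the endoplasmic reticulum (ER) with misfolded protein, and the ER-bound factor CREB3L3 can also act on acute-phase genes in liver. The protein made from Rbbp5 is a core part of the COMPASS family of histone H3 methyltransferases.

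Reads on the gene's own strand numbered 6507018 to 13519421 per library, of which 72.5 to 75.5% fell on Rn45s, the ribosomal RNA precursor, which left 1704479 to 3551398 reads on other genes. Values are CPM (counts scaled to a common library size, with TMM library sizes that include Rn45s) unless FPKM is named. Rbbp5 stood at 4.07 to 6.41 CPM in the 6 WT samples and at 1.90 to 4.15 CPM in the 7 LKO samples, and the library labelled LKO vehicle 1, at 4.15 CPM, lay inside the WT range. The log2 difference between LKO and WT was -0.87 with vehicle and -0.90 after tunicamycin, with adjusted p = 0.330 and 0.105 by edgeR's quasi-likelihood test. Reads were counted over the whole gene, and the floxed exons are not given in the sources used here. Hepatocyte markers were abundant in every sample, with a summed level of 19624 to 30863 CPM over 8 genes. In bulk tissue, fewer cells of a type and less RNA per cell cannot be told apart.

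Within the acute-phase genes, 2 samples lay far from the others of their group. WT tunicamycin 3 had acute-phase levels near those of the WT vehicle samples, and LKO vehicle 2 had levels near those of the tunicamycin samples. Both also stood apart in the check of replicate pairs over all genes, these members included. The chi-square per degree of freedom was 25.9 and 25.8 for WT tunicamycin 3 with samples 1 and 2, against 6.23 between those. It was 13.1 to 16.5 for LKO vehicle 2 with libraries 1, 3 and 4, against 6.68 and 7.03 for library 1 with 3 and 4. The 10 genes together took 0.482, 0.498 and 0.682% of the reads outside Rn45s in WT vehicle samples 1 to 3, and 3.87, 3.65 and 0.633% in WT tunicamycin samples 1 to 3. They took 0.739, 2.92 and 0.912% in LKO vehicle samples 1, 2 and 3+4, and 3.81, 4.32, 3.07 and 3.24% in LKO tunicamycin samples 1 to 4. Both groups that hold a stray sample have only 3 samples, so each comparison that uses them is given with and without that sample.

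The sequences just upstream of the genes show how closely some of them are related. RefSeq entries of build GRCm38.p6 were matched by symbol for 8 of the 10 genes, the others being Orm1 and Hp. Those for the near copies Saa1 and Saa2, for Saa4 of the same cluster, for the near copies Orm2 and Orm3, and for Hpx are printed as the 250 bases before the annotated start, in the direction of transcription. Capitals mark matches on either strand to a C/EBP-like motif (TTNNGNAA) or an NF-kB-like motif (GGG, any 5 bases, CC), and where the 2 kinds of match adjoin they form 1 run of capitals.
Saa1: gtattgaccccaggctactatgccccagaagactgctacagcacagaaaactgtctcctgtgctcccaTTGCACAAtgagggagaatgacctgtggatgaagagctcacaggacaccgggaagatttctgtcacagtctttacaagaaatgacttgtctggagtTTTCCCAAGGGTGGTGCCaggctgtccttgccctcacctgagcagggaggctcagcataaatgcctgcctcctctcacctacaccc
Saa2: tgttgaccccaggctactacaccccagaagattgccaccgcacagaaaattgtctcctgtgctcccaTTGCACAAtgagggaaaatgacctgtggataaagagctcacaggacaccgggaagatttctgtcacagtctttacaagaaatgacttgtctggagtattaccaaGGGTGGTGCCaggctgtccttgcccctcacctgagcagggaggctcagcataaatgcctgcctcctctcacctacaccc
Saa4: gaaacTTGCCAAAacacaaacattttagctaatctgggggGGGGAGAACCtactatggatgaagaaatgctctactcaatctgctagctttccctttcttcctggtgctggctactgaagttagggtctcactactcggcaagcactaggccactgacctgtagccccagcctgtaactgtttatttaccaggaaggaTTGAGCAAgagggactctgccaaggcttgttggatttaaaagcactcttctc
Orm2: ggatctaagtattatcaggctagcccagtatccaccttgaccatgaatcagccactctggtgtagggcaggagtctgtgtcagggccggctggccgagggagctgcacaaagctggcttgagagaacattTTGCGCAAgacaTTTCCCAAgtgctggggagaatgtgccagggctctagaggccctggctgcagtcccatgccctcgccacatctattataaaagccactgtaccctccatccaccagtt
Orm3: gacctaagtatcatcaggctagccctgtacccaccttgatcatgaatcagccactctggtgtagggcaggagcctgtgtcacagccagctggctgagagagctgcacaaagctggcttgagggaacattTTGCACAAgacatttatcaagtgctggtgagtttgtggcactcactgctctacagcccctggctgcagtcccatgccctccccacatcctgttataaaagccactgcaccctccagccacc
Hpx: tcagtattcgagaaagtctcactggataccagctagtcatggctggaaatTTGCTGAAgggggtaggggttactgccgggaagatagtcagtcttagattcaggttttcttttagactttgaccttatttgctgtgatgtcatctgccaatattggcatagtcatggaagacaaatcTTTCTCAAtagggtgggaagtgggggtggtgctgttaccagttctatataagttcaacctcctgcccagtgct

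These stretches lie at chr7:46742981-46743230 on the minus strand (Saa1), chr7:46751583-46751832 on the plus strand (Saa2), chr7:46732604-46732853 on the minus strand (Saa4), chr4:63362199-63362448 on the plus strand (Orm2), chr4:63355908-63356157 on the plus strand (Orm3) and chr7:105600117-105600366 on the minus strand (Hpx). Saa1 and Saa2 were identical at 94.8% of aligned positions, Orm2 and Orm3 at 85.5%, and Saa1 and Saa4 at 46.3%. The C/EBP-like letters occurred in all 8 upstream sequences that could be read, against 36.8% of 32851 promoters of the same length, and the NF-kB-like letters in 4 of 8, against 45.8%. Saa1 held 2 C/EBP-like matches, and Saa2 kept only the one farther from the start, while the NF-kB-like run GGGTGGTGCC was present in both. The core of the acute-phase response element, CTGGGAA, was found in 0 of 8 against 9.1% of all promoters, and a STAT-like motif, TTCNNNGAA, in 0 of 8 against 7.02%. Matches and their absence describe these letters in this window and say nothing of binding.

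The serum amyloid A genes lie together on chromosome 7, and mm10 coordinates in the deposited table put them at chr7:46711998-46715676 (Saa3), chr7:46727999-46732543 (Saa4), chr7:46740499-46742980 (Saa1) and chr7:46751833-46754314 (Saa2). SAA1 and SAA2 are the main circulating acute-phase forms and travel on high-density lipoprotein. Saa1 stood at 20.6, 21.1 and 67.5 CPM in WT vehicle samples 1 to 3, and at 1407, 1428 and 75.6 CPM in WT tunicamycin samples 1 to 3. In LKO livers, Saa1 stood at 66.5, 1185 and 209 CPM in vehicle samples 1, 2 and 3+4, and at 1498, 1979, 927 and 1157 CPM in tunicamycin samples 1 to 4. Thus 7 samples lay at 927 CPM or more and 6 at 209 CPM or less, and the split did not follow the groups, since WT tunicamycin 3 was among the low samples and LKO vehicle 2 among the high ones.

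Saa2 followed Saa1 from sample to sample over a wider range. It stood at 11.9, 17.9 and 63.8 CPM in WT vehicle and at 1970.3, 2060.0 and 66.4 CPM in WT tunicamycin. In LKO livers it stood at 60.7, 1754 and 275 CPM with vehicle and at 2585, 3241, 1361 and 1767 CPM after tunicamycin. The highest Saa2 sample was 273-fold above the lowest, the widest span of the 10 genes. Because the transcripts are near copies, some reads could have been lost or counted for the other gene. Of 50-base stretches, 14.8% in Saa1 and 9.12% in Saa2 also occur in another transcript, but none of 100 bases does. The share of Saa2 among the reads of both genes was 36.5% (99 of 271 reads; 95% Wilson interval 31.0 to 42.4%) in WT vehicle 1 and 63.3% (interval 62.8 to 63.8%) in LKO tunicamycin 1. By group it was 43.7% ± 6.34 (SD, n = 3) in WT vehicle, 54.7% ± 6.91 (SD, n = 3) in WT tunicamycin, 54.7% ± 6.24 (SD, n = 3) in LKO vehicle and 61.3% ± 1.70 (SD, n = 4) in LKO tunicamycin. These intervals cover counting error only, since no molecular identifiers are mentioned in the sources used here. Each of the 7 samples high in Saa1 had a Saa2 share of 58.3% or more, and the low samples reached 56.8% at most.

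Saa3 and Saa4 departed from this pair in opposite ways. Saa3, which is expressed by macrophages and other cells as well as by hepatocytes, was read thinly, from 3 to 239 reads per sample. It stood at 0.359, 0.769 and 3.94 CPM in WT vehicle, at 14.6, 11.997 and 0.617 CPM in WT tunicamycin, at 0.948, 5.84 and 2.08 CPM in LKO vehicle and at 19.6, 16.3, 24.4 and 8.90 CPM in LKO tunicamycin. Unlike Saa1 and Saa2, Saa3 did not overlap between LKO vehicle and LKO tunicamycin, because LKO vehicle 2 at 5.84 CPM stayed below the lowest tunicamycin sample. Saa4, the form found on lipoprotein without inflammation, moved over a 4.52-fold span only. Its values were 186, 245 and 281 CPM in WT vehicle, 527, 574 and 172 CPM in WT tunicamycin, 145, 218 and 224 CPM in LKO vehicle and 209, 236, 133 and 127 CPM in LKO tunicamycin. Saa4 was the only gene of the 10 in which no LKO sample, with vehicle or tunicamycin, exceeded the highest WT vehicle sample, and WT tunicamycin 1 and 2 were the highest of all.

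**Figure D1:**
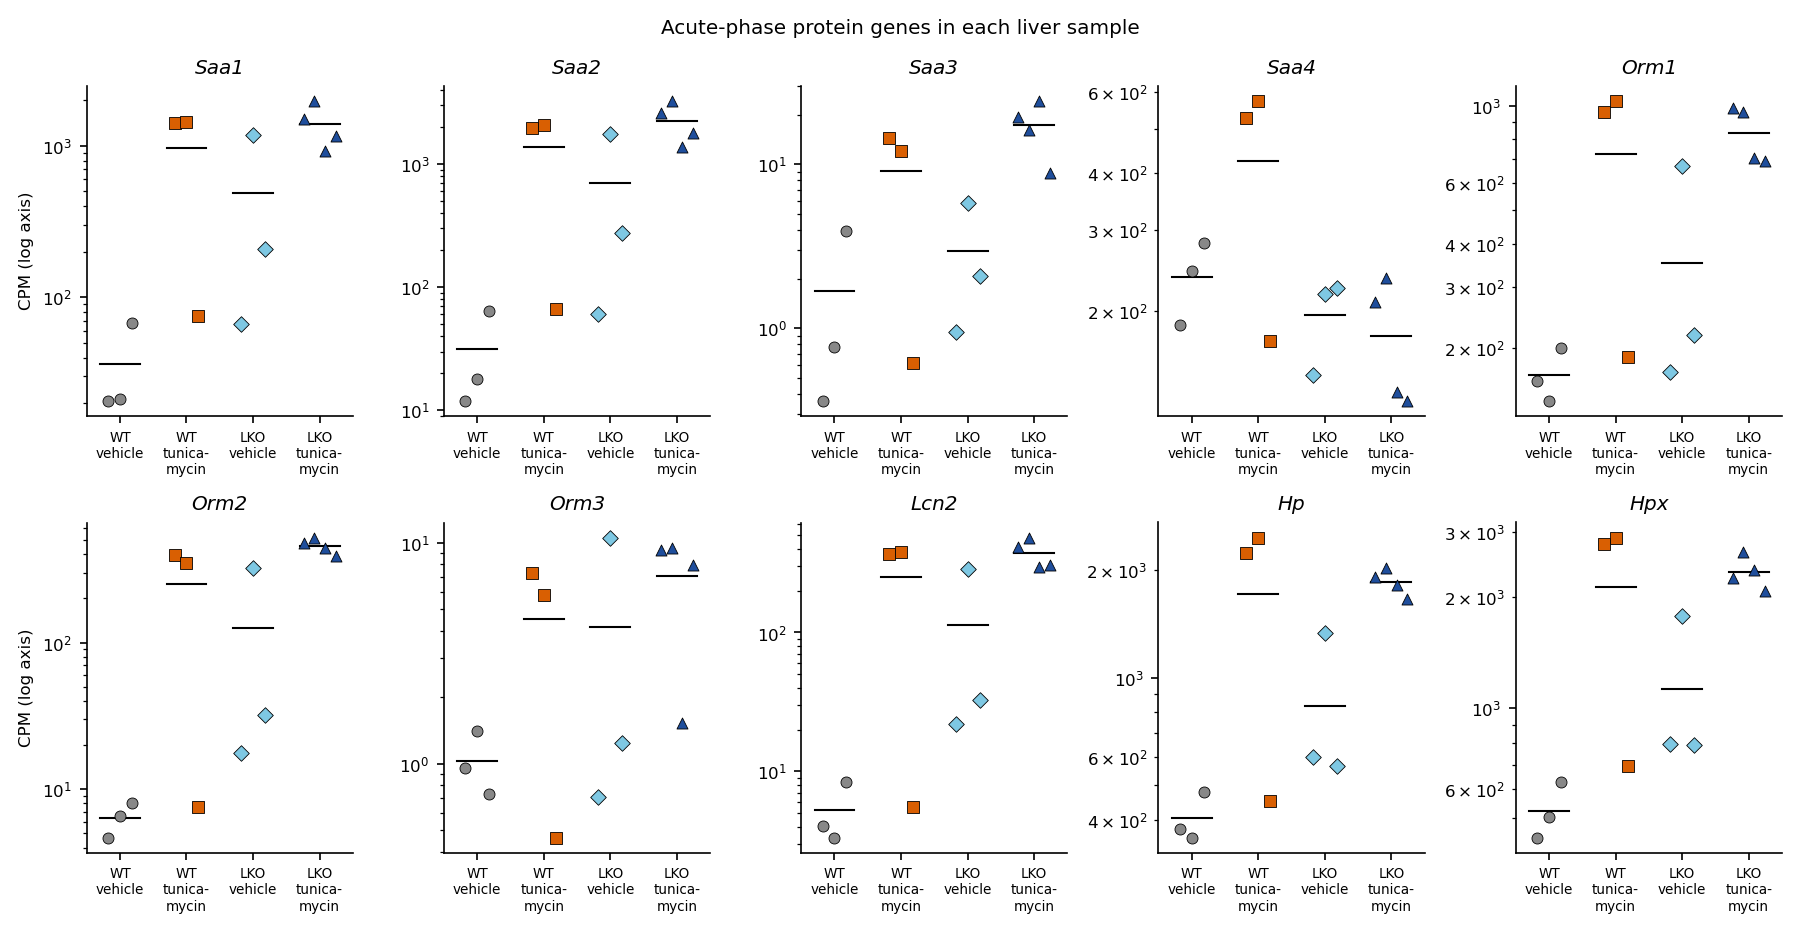
Level of each of the 10 genes in CPM (log axis) in the 13 samples by group, with 1 point per sample in order of its number and a line at the group mean. In 9 of the 10 panels WT tunicamycin 3 sits with the low samples and LKO vehicle 2 with the high ones, and the Saa4 panel departs from this.

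Orosomucoids, also called alpha-1-acid glycoproteins, are heavily glycosylated plasma proteins that bind basic drugs and modulate inflammation. Their genes stand side by side at chr4:63344566-63348162 (Orm1), chr4:63356162-63359511 (Orm3) and chr4:63362449-63365877 (Orm2). Orm1 never fell under 140.3 CPM, with 160.3, 140.3 and 199.99 CPM in WT vehicle and 960.1, 1031 and 188 CPM in WT tunicamycin. In LKO livers it stood at 170.3, 669.7 and 218 CPM with vehicle and at 985, 960.1, 706 and 692 CPM after tunicamycin. Orm2 started much lower, at 4.67, 6.54 and 8.02 CPM in WT vehicle, and stood at 393, 347 and 7.56 CPM in WT tunicamycin. In LKO livers Orm2 stood at 17.8, 324 and 32.2 CPM with vehicle and at 476, 520.3, 445 and 391 CPM after tunicamycin. All 3 LKO vehicle samples lay above all 3 WT vehicle samples in Orm2, and no WT vehicle sample passed 8.02 CPM.

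Orm3, the least abundant of the family, was read between 3 and 145 times per sample. It stood at 0.958, 1.41 and 0.729 CPM in WT vehicle, 7.29, 5.84 and 0.463 CPM in WT tunicamycin, 0.711, 10.6 and 1.25 CPM in LKO vehicle and 9.33, 9.50, 1.53 and 7.93 CPM in LKO tunicamycin. LKO tunicamycin 3 was low in Orm3 at 1.53 CPM while its Orm2, at 445 CPM, lay within the range of its group. The Orm2 share of all orosomucoid reads moved with the level of the family. It was 2.81, 4.41 and 3.84% in WT vehicle, 28.9, 25.1 and 3.86% in WT tunicamycin, 9.42, 32.3 and 12.8% in LKO vehicle and 32.4, 34.9, 38.6 and 35.8% in LKO tunicamycin. Of 50-base stretches, 20.4% in Orm1 and 22.7% in Orm2 occur in another transcript, and 6.95% of 100-base stretches of each occur in the other, so some reads could have been lost or counted for the other gene. The read length is not given in the sources used here.

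**Figure D2:**
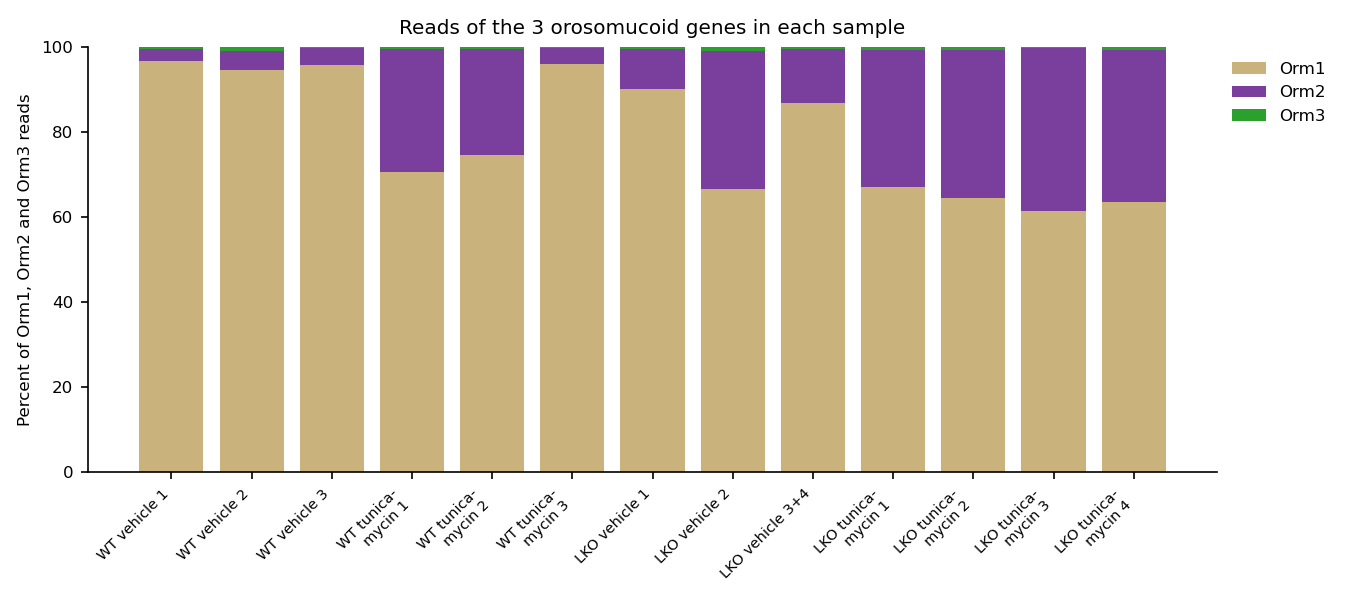
Percent of the reads on Orm1, Orm2 and Orm3 that fell on each gene (stacked bars, 1 per sample). Orm2 makes up 2.81 to 4.41% in WT vehicle and in WT tunicamycin 3, and 25.1 to 38.6% in the other tunicamycin samples and LKO vehicle 2, with LKO vehicle 1 and 3+4 in between.

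Lcn2 encodes lipocalin-2, which binds bacterial siderophores and withholds iron. It stood at 4.07, 3.33 and 8.45 CPM in WT vehicle and at 365, 378 and 5.56 CPM in WT tunicamycin. The LKO values were 21.8, 285 and 32.6 CPM with vehicle and 413, 483, 298 and 307 CPM after tunicamycin. LKO vehicle samples were all above WT vehicle, and LKO vehicle 2 lay just under the lowest LKO tunicamycin sample. Lcn2 shares no 50-base stretch with another annotated transcript, so this pattern does not rest on the assignment of reads between copies.

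Hp and Hpx encode haptoglobin and hemopexin, the plasma carriers of free haemoglobin and free heme, and both were abundant in untreated liver. Hp stood at 378, 357 and 479 CPM in WT vehicle, 2232, 2466 and 453 CPM in WT tunicamycin, 599.9, 1332 and 566 CPM in LKO vehicle and 1916, 2024, 1816 and 1656 CPM in LKO tunicamycin. Hpx stood at 443, 504 and 626 CPM in WT vehicle, 2787, 2901 and 696 CPM in WT tunicamycin, 796, 1774 and 794 CPM in LKO vehicle and 2254, 2657, 2361 and 2071 CPM in LKO tunicamycin. For both genes the LKO vehicle samples lay above the WT vehicle samples and below the LKO tunicamycin samples, without overlap. Hpx was also free of overlap between WT vehicle and WT tunicamycin, by the margin of 626 to 696 CPM, whereas Hp of WT tunicamycin 3 lay within the vehicle range.

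Scaled by transcript length, as FPKM from the deposited table, the order of the genes changed between the groups. In WT vehicle, Hp (149.5 ± 25.6 FPKM, SD, n = 3) and Hpx (144 ± 24.4) led and differed by less than their spread, followed by Orm1 (93.2 ± 15.9), Saa4 (60.4 ± 11.9), Saa1 (27.9 ± 19.6) and Saa2 (25.2 ± 23.1). Orm2 (5.21 ± 0.874), Lcn2 (2.46 ± 0.977), Saa3 (2.21 ± 2.66) and Orm3 (0.535 ± 0.144) were the lowest. In LKO tunicamycin, Saa2 (1972 ± 669.9 FPKM, SD, n = 4) and Saa1 (1136 ± 332) led, ahead of Hp (702 ± 39.9), Hpx (667 ± 47.3), Orm1 (502 ± 76.4), Orm2 (249 ± 25.1) and Lcn2 (192 ± 39.6). Saa4 (45.2 ± 12.3), Saa3 (23.5 ± 8.64) and Orm3 (3.08 ± 1.46) closed the order. Saa4 thus stood above Saa1 and Saa2 in WT vehicle and far below them in LKO tunicamycin, where Saa1 and Saa2 also stood above the carriers of haemoglobin and heme.

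The effect of tunicamycin in WT liver was compared first. The fitted log2 fold change was positive for all 10 genes. Hpx rose, with a log2 fold change of 2.02 ± 0.41 (SE; adjusted p = 0.0427, quasi-likelihood test of edgeR, adjusted by Benjamini-Hochberg). That is 1 member called of 10, against 0.363% of all genes tested, or 0.29% called higher. DESeq2 called 7 of the 10, against 1.56% of all genes, and at an unadjusted p under 0.05 edgeR had 9 members, against 14.8% of all genes. Larger estimates for Lcn2 (5.58 ± 1.17), Saa2 (5.46 ± 1.20), Orm2 (5.29 ± 1.15) and Saa1 (4.74 ± 1.02) did not pass, with adjusted p = 0.0512, 0.0527, 0.0512 and 0.0512 in edgeR. The estimate for Hp, 2.08 ± 0.45, had the same adjusted p of 0.0512 in edgeR, and those for Orm1 (2.12 ± 0.52), Orm3 (2.12 ± 1.09), Saa3 (2.52 ± 0.85) and Saa4 (0.84 ± 0.35) had 0.0822 to 0.375. The median over the 10 genes was 2.32, against 0.01 over all genes tested. In 3 of the 10 genes WT vehicle and WT tunicamycin did not overlap, Saa1, Saa2 and Hpx, all higher after tunicamycin, against 8.63% of all genes higher in this way.

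These calls hang on single samples. Without WT tunicamycin 3, 9 of the 10 genes were called in this comparison, all but Orm3, and the share of all genes called rose as well, from 0.363 to 6.19%. The estimates became 6.15 for Lcn2, 6.02 for Saa2, 5.86 for Orm2, 5.29 for Saa1, 3.06 for Saa3, 2.65 for Orm3, 2.58 for Orm1, 2.54 for Hp, 2.44 for Hpx and 1.21 for Saa4. Leaving out LKO vehicle 2, which is not in the comparison but shares its estimate of the spread, gave 7 called genes, against 0.535% of all genes. Omitting LKO vehicle 1 gave 5, against 0.446%, and omitting LKO vehicle 3+4 gave 6, against 0.687%. Leaving out any 1 of the 3 WT vehicle samples, of the 4 LKO tunicamycin samples, or WT tunicamycin 1 or 2, gave 0. In those fits 0.0 to 0.342% of all genes were called.

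In LKO liver, the fitted effect of tunicamycin was positive for 9 of the 10 genes and -0.15 ± 0.32 for Saa4. No member was called by edgeR (0 of 10, against 0.0311% of all genes) or by DESeq2 (0 of 10, against 0.363%). At an unadjusted p under 0.05 there were 4 members, against 12.2% of all genes. Saa3 had the largest estimate, 2.47 ± 0.61 (adjusted p = 0.197 by edgeR's quasi-likelihood test). The others were Orm2 (1.87 ± 0.90), Lcn2 (1.72 ± 0.90), Saa2 (1.68 ± 0.97), Saa1 (1.51 ± 0.84), Orm1 (1.24 ± 0.48), Hp (1.15 ± 0.42), Hpx (1.06 ± 0.38) and Orm3 (0.67 ± 0.68). Groups did not overlap for 6 of the 10, all higher after tunicamycin, against 5.03% of all genes. Without LKO vehicle 2 the estimates were larger for all 9 of these genes, at 4.18 for Orm2, 3.77 for Lcn2, 3.73 for Saa2, 3.33 for Saa1, 3.37 for Saa3, 2.71 for Orm3, 2.10 for Orm1, 1.67 for Hp and 1.55 for Hpx, with -0.073 for Saa4. In that fit 0 members were called, against 0.0909% of all genes. Without WT tunicamycin 3, which enters only through the spread, Saa3 and Hp were called, with adjusted p = 0.0254 and 0.0415 in edgeR, against 0.674% of all genes.

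With vehicle alone, LKO liver was compared with WT liver. Estimates were positive for 9 of the 10 genes and largest for Saa2 (4.49 ± 1.15), Lcn2 (4.44 ± 1.13), Orm2 (4.29 ± 1.11) and Saa1 (3.75 ± 0.97), with adjusted p = 0.260, 0.260, 0.260 and 0.268 by edgeR. Orm3 (2.05 ± 1.03), Hpx (1.10 ± 0.40), Orm1 (1.08 ± 0.50), Hp (1.04 ± 0.44), Saa3 (0.96 ± 0.92) and Saa4 (-0.28 ± 0.35) followed. By edgeR 0 of the 10 were called, against 0.0415% of all genes, and by DESeq2 0, against 0.207%. An unadjusted p under 0.05 in edgeR was found for 7, against 8.15% of all genes. Lcn2, Orm2, Hp and Hpx did not overlap between the genotypes, 4 of 10 against 7.52% of all genes that were higher without overlap. LKO vehicle 2 carried much of the size: without it the estimates were 2.44 for Saa2, 2.39 for Lcn2, 1.98 for Orm2, 1.93 for Saa1, 0.60 for Hpx, 0.52 for Hp, 0.22 for Orm1, 0.06 for Saa3, 0.01 for Orm3 and -0.36 for Saa4. Without WT tunicamycin 3, Lcn2 and Orm2 were called, with adjusted p = 0.0258 and 0.0380 in edgeR, against 0.171% of all genes.

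After tunicamycin, LKO and WT livers overlapped in all 10 genes, while 12.9% of all genes did not overlap in either direction. By edgeR 0 members were called, against 0.861% of all genes tested, and by DESeq2 0, against 1.43%. At an unadjusted p under 0.05 there was 1 member, Saa4, against 15.8% of all genes. Saa4 had the largest difference, -1.27 ± 0.32 (adjusted p = 0.0731, edgeR's quasi-likelihood test), and the other 9 estimates ran from 0.11 to 0.92 with standard errors of 0.37 to 0.93. In Saa4, WT tunicamycin 1 and 2, at 527 and 574 CPM, stood above all 4 LKO tunicamycin samples, at 127 to 236 CPM, while WT tunicamycin 3, at 172 CPM, lay among them. Without WT tunicamycin 3 the Saa4 difference became -1.65 and was called (adjusted p = 0.00515 in edgeR), against 0.644% of all genes. The same omission brought Hp to -0.34, Hpx to -0.29, Orm1 to -0.25 and Saa1 to -0.031, each from a positive estimate, and left Saa3 at 0.37, Orm2 at 0.30, Saa2 at 0.15, Orm3 at 0.066 and Lcn2 at 0.012.

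The difference between the tunicamycin effects in the 2 genotypes was negative for all 10 genes as fitted, but Saa3 was near 0 and turned positive in 13 of 24 alternatives, among them DESeq2 and total count scaling (0.12 in each). By edgeR 0 members were called, against 0.0% of all genes, and by DESeq2 0, also against 0.0%. The estimates ran from -3.85 ± 1.37 for Lcn2, -3.77 ± 1.39 for Saa2, -3.42 ± 1.35 for Orm2 and -3.23 ± 1.21 for Saa1 to -0.04 ± 0.99 for Saa3, and the lowest adjusted p in edgeR was 0.935. At an unadjusted p under 0.05 there were 4 members, against 4.91% of all genes. The 2 stray samples moved these estimates in opposite directions. Without WT tunicamycin 3 they were -4.43 for Lcn2, -4.34 for Saa2, -3.99 for Orm2, -3.78 for Saa1, -1.98 for Orm3, -1.38 for Hp and Hpx, -1.37 for Saa4, -1.33 for Orm1 and -0.59 for Saa3, with a lowest adjusted p of 0.253 in edgeR. Without LKO vehicle 2 they were -1.80 for Lcn2, -1.72 for Saa2, -1.41 for Saa1, -1.11 for Orm2, -0.91 for Saa4, -0.47 for Hpx, -0.42 for Hp and -0.017 for Orm1, with Orm3 at 0.58 and Saa3 at 0.86. No member passed the threshold in either of these fits, against 0.0201 and 0.0% of all genes. The contrasts share groups: WT vehicle and WT tunicamycin enter the WT effect and the genotype contrasts alike, and so their values are not separate evidence.

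**Figure D3:**
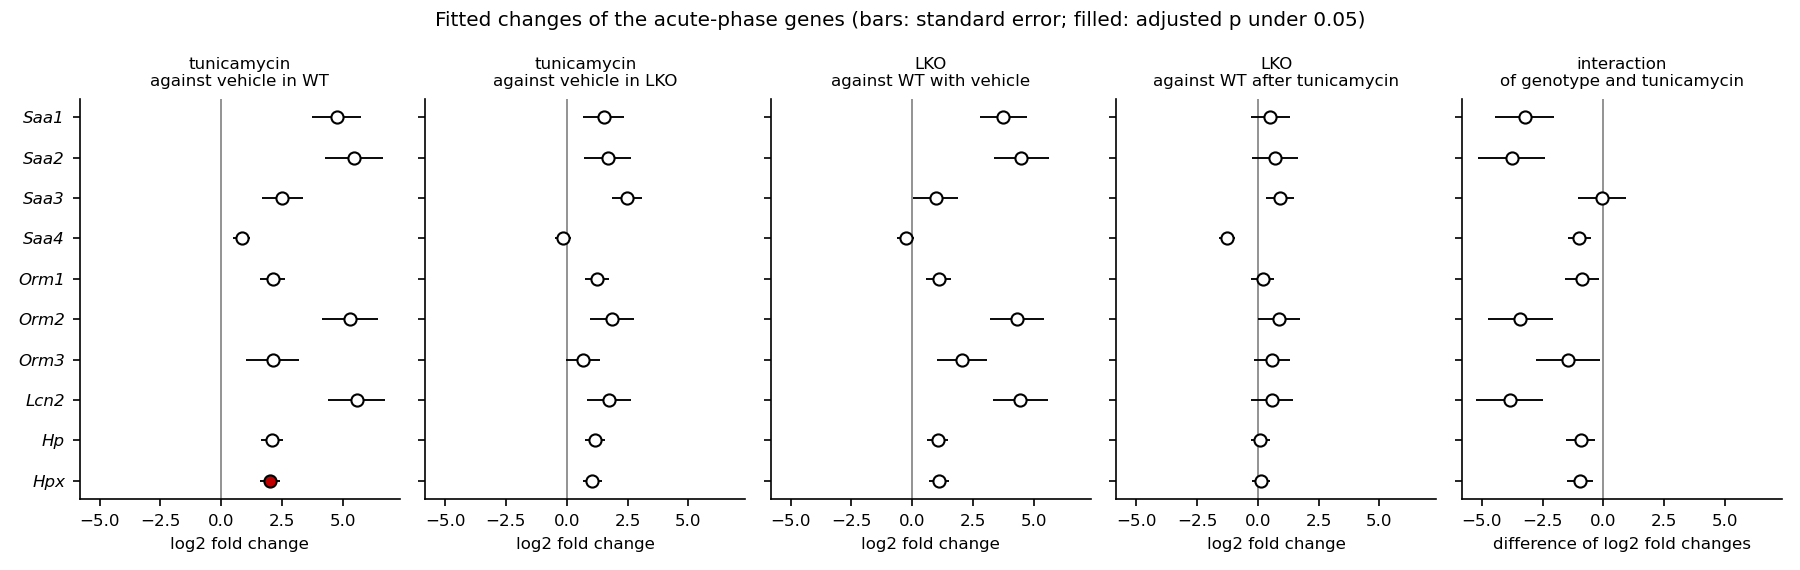
Fitted log2 fold change of each gene (points) with its standard error (bars) in the 4 comparisons, and in the last panel the difference between the tunicamycin effects; a filled point has an adjusted p under 0.05 in edgeR. Only Hpx in WT liver is filled, Saa4 is the gene nearest 0 in the WT panel, and after tunicamycin the estimates of the other 9 genes lie between 0.11 and 0.92.

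The 13 samples were ranked alike by most of the genes. The 7 samples highest in Saa1 were WT tunicamycin 1 and 2, LKO vehicle 2 and LKO tunicamycin 1 to 4. They were the 7 highest in 9 of the 10 genes, all but Saa4, with Saa1 itself counted. Of all genes tested, these members included, 197 (2.04%) had the same 7 samples on top, and 226 had them as the 7 lowest. Since the set was read from Saa1, this describes the samples and is no independent agreement. The gap between the lowest of these 7 and the next sample was 10.1-fold in Orm2, 8.76-fold in Lcn2, 4.95-fold in Saa2, 4.43-fold in Saa1, 3.07-fold in Orm1, 2.23-fold in Hpx and 2.22-fold in Hp. Below the gap, LKO vehicle 3+4 was the next sample for Saa1, Saa2, Orm1, Orm2 and Lcn2, and LKO vehicle 1 for Hp and Hpx. Saa3 and Orm3 did not split clearly at this point. Saa3 went from 5.84 CPM in LKO vehicle 2 to 3.94 CPM in WT vehicle 3. Orm3 went from 1.53 CPM in LKO tunicamycin 3 to 1.41 CPM in WT vehicle 2. Their largest gaps lay elsewhere, below 9 samples in Saa3 (2.19-fold) and below 6 samples in Orm3 (3.82-fold).

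Hspa5 and Ddit3, from a list of ER stress genes, did not rank the samples in that way. Hspa5, the ER chaperone BiP, stood at 197, 211 and 253 CPM in WT vehicle, 854, 313 and 786 CPM in WT tunicamycin, 127, 117 and 173 CPM in LKO vehicle and 229, 142, 181 and 207 CPM in LKO tunicamycin. The gene of the stress factor CHOP, Ddit3, had 26.3, 1.30 and 20.4 CPM in samples 1 to 3 of WT tunicamycin, and at 0.390 to 2.04 CPM in all other samples. Thus WT tunicamycin 3 had Hspa5 and Ddit3 near those of WT tunicamycin 1 and Saa1 near that of WT vehicle 3. In WT tunicamycin 2, Saa1 was at 1428 CPM with Ddit3 inside the vehicle range. Other genes of the list were raised in that sample. Hspa5 (313 CPM), Hsp90b1 (411 CPM), Pdia4 (128 CPM), Sdf2l1 (10.9 CPM) and Xbp1 (67.3 CPM) lay above all WT vehicle samples. Trib3 (0.649 CPM) lay within the WT vehicle range and Dnajb9 (26.8 CPM) below it. LKO vehicle 2 joined Saa1 at 1185 CPM to the lowest Hspa5 of all samples. Some other genes of the list were not low there: Pdia4, at 84.8 CPM, lay above all WT vehicle samples (54.8 to 69.5 CPM), as did Sdf2l1, at 6.86 CPM, and Hsp90b1, at 275 CPM, was the highest of its group. Of 11 tested genes in a list of ER stress markers, 6 rose with tunicamycin in WT liver, against 0.29% of all genes, including Hspa5 (log2 fold change 1.57 ± 0.29, adjusted p = 0.0388), Pdia4 (1.63 ± 0.22, adjusted p = 0.00711), Hsp90b1 (1.27 ± 0.20, adjusted p = 0.0170) and Ddit3 (3.71 ± 0.72, adjusted p = 0.0399) by edgeR. The same list had 6 genes lower in LKO than in WT liver after tunicamycin, against 0.55% of all genes, among them Hspa5 (-1.78 ± 0.27, adjusted p = 0.0102), Trib3 (-2.91 ± 0.59, adjusted p = 0.0332) and Dnajb9 (-1.31 ± 0.28, adjusted p = 0.0405) by edgeR, where 0 of the 10 acute-phase genes were called. The WT count was 0 when WT tunicamycin 1, WT vehicle 1 or WT vehicle 2 was left out, where 0.0% of all genes were called. It was 1 without WT vehicle 3 (0.0201% of all genes), and 3 without LKO tunicamycin 3 or 4 (0.0943 and 0.0838%). The count after tunicamycin was 0 without WT tunicamycin 1 (0.0% of all genes), and 3 without WT tunicamycin 3 or LKO tunicamycin 2 (0.644 and 0.366%). It was 2 without LKO tunicamycin 3 or 4 (0.126 and 0.147%), and 3 with the replicate block (0.332%).

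**Figure D4:**
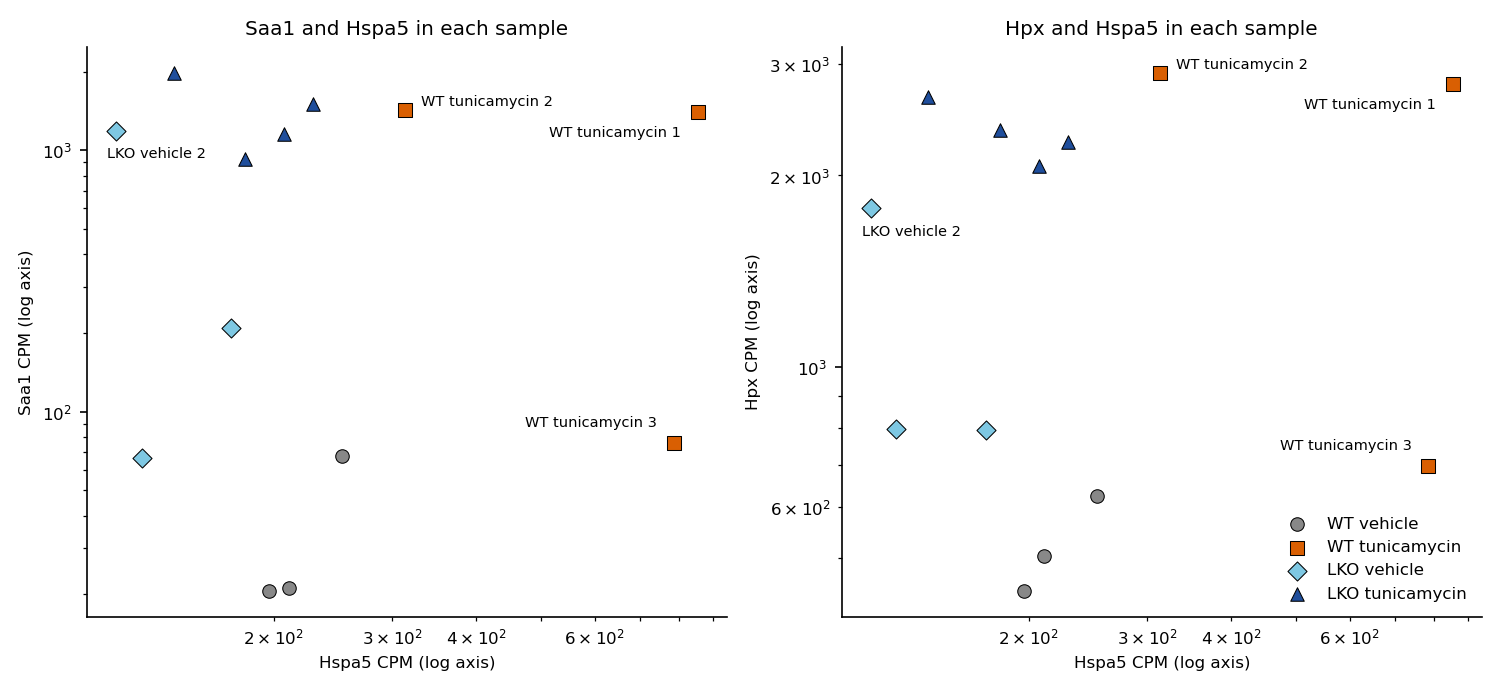
CPM of Saa1 (left) and Hpx (right) against CPM of Hspa5, on log axes, with 1 point per sample and marker shape by group. WT tunicamycin 3 combines Hspa5 at 786 CPM with Saa1 at 75.6 CPM, and LKO vehicle 2 combines Hspa5 at 117 CPM with Saa1 at 1185 CPM.

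Most other positive acute-phase genes had positive estimates with tunicamycin too, with a smaller median than the 10 in both genotypes in the main fit. Of 18 further positive acute-phase genes, 17 were tested, all 17 had a positive estimate in both tunicamycin comparisons and 0 were called in either by edgeR. DESeq2 called 12 in WT and 1 in LKO, against 1.56 and 0.363% of all genes. Without WT tunicamycin 3, edgeR called 15 in WT and 3 in LKO, against 6.19 and 0.674% of all genes. The positive count in LKO was 16 with total count scaling, and also without LKO vehicle 1 or without LKO tunicamycin 2. Their medians were 1.36 in WT and 1.001 in LKO, against 2.32 and 1.38 for the 10 genes and 0.01 and 0.0045 over all genes. An unadjusted p under 0.05 in edgeR was found for 16 and 10 of the 17, against 14.8 and 12.2% of all genes. Apcs, which encodes serum amyloid P, the main pentraxin of the mouse acute phase, stood at 16.5, 14.5 and 30.6 CPM in WT vehicle, 266, 329 and 21.0 CPM in WT tunicamycin, 37.7, 131 and 21.4 CPM in LKO vehicle and 274, 285, 193 and 151 CPM in LKO tunicamycin. Its WT estimate was 3.33 ± 0.75 (adjusted p = 0.0604 by edgeR), while Crp, a minor acute-phase gene in mice, had 0.36 ± 0.20 in WT and 0.04 ± 0.19 in LKO. Serpina3n, a serine protease inhibitor, had 2.06 ± 0.61 and 1.29 ± 0.57, the complement gene C3 1.09 ± 0.31 and 0.51 ± 0.29, and the fibrinogen genes Fga and Fgb 1.30 ± 0.37 and 1.31 ± 0.36 in WT. Fga and Fgb had 0.97 ± 0.35 and 1.004 ± 0.34 in LKO. Hamp, which encodes the iron hormone hepcidin, did not rank the samples in that way: WT tunicamycin 3, low in the 10 genes, had the highest Hamp at 119 CPM, and LKO vehicle 2 had 34.9 CPM. Lbp, the binding protein for bacterial lipopolysaccharide, had 90.0, 90.8 and 28.9 CPM in WT tunicamycin and 45.03, 61.8, 45.7 and 40.6 CPM in LKO tunicamycin.

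**Figure D5:**
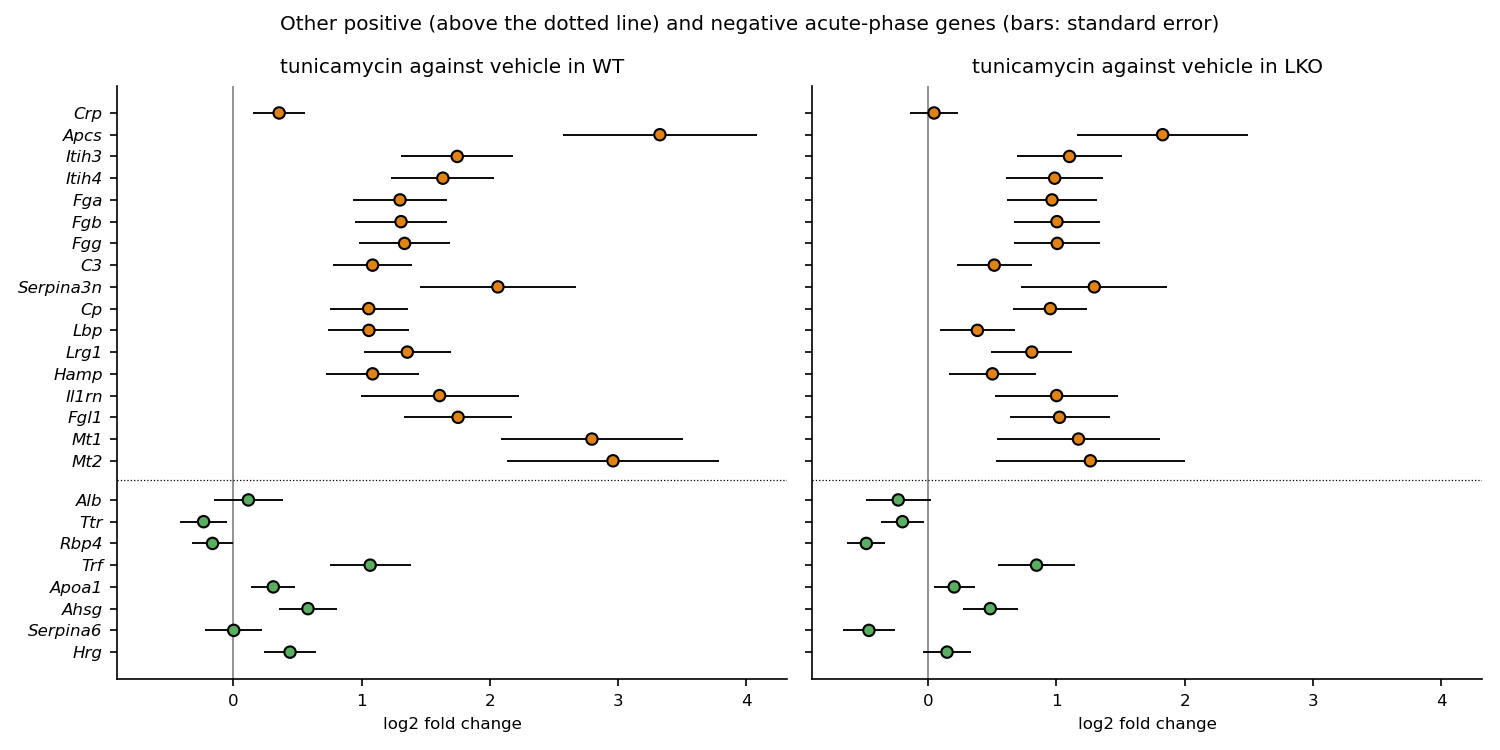
Fitted log2 fold change with tunicamycin (points) and standard error (bars) for 17 further positive acute-phase genes, above the dotted line, and 8 negative ones, below it, in WT (left) and LKO liver (right). All 17 positive genes lie to the right of 0 in both panels (16 in LKO with total count scaling), and 0 passed the threshold in edgeR.

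Negative acute-phase genes, whose plasma products fall during inflammation, showed no common direction. Of 8 tested, 6 had a positive estimate in WT and 4 in LKO, and 0 were called by edgeR in any comparison, with 3 and 4 of the 8 at an unadjusted p under 0.05 in WT and LKO, against 14.8 and 12.2% of all genes. In WT, 5 were positive and 1 called with DESeq2 (1.56% of all genes), 4 were positive with total count scaling, and 3 were called without WT tunicamycin 3 (6.19%). Alb, which encodes albumin, had 0.12 ± 0.27 in WT and -0.23 ± 0.25 in LKO, and Ahsg, which encodes fetuin-A, 0.58 ± 0.23 and 0.48 ± 0.21. Trf, the iron carrier transferrin, which was listed as negative, went with the positive genes at 1.07 ± 0.32 in WT and 0.84 ± 0.30 in LKO.

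Among 20 tested genes for the cytokine signal and transcription factors, 1 was called in any comparison, and it was Socs3. Socs3, the feedback inhibitor that STAT3 induces, was lower in LKO than in WT liver after tunicamycin, at -1.69 ± 0.38 (adjusted p = 0.0459, edgeR's quasi-likelihood test). In that comparison 0.55% of all genes were called lower. Socs3 was read thinly, from 11 to 58 reads per sample. The count of genes of the list called lower in that comparison was 0 when any 1 WT vehicle sample or WT tunicamycin 1 was left out. It was also 0 without any 1 of the LKO tunicamycin samples and with the replicate block. In those fits 0.0 to 0.614% of all genes were called in either direction. The count was 2 without LKO vehicle 3+4 or with DESeq2 (1.32 and 1.43% of all genes), and 3 without WT tunicamycin 3 (0.644%). Socs3 stood at 2.87, 1.67 and 2.77 CPM in WT vehicle, 7.98, 7.13 and 2.16 CPM in WT tunicamycin, 2.25, 0.949 and 1.36 CPM in LKO vehicle and 1.47, 2.60, 1.53 and 1.63 CPM in LKO tunicamycin. The 2 WT livers high in the acute-phase genes were thus the only samples high in Socs3, and the 5 LKO livers high in those genes had 0.949 to 2.60 CPM. Il6 itself had 0 reads in each of the 13 samples, which allows up to 3 reads, or 0.178 to 0.486 CPM by sample. Stat3 had 0.46 ± 0.20 in WT and 0.40 ± 0.18 in LKO, the receptor subunit Il6st 0.18 ± 0.14 and 0.05 ± 0.13, the kinase Jak1 0.14 ± 0.12 and -0.02 ± 0.11, and Creb3l3 0.11 ± 0.13 and 0.01 ± 0.12, none of them called. Of 7 tested genes for receptors that take up these proteins or their complexes, 0 were called by edgeR in any comparison. Lrp1, the receptor for heme-hemopexin, had 0.25 ± 0.24 in WT and 0.29 ± 0.22 in LKO. Scarb1, a receptor for high-density lipoprotein, had 0.35 ± 0.14 and 0.26 ± 0.13, and Asgr1, of the asialoglycoprotein receptor, -0.01 ± 0.11 and -0.13 ± 0.10.

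The genes whose log2 CPM ran most like each member over the 13 samples were looked for among the 5998 genes whose log2 CPM averaged 2 or more. These correlations describe samples that mostly fall into a high and a low set, so they rest largely on that split. For Saa1 the nearest genes were Saa2, Lcn2 and Orm2, with r from 0.980 to 0.999, and for Hp they were Hpx, Fgl1 and Apcs, with r from 0.991 to 0.996. Orm2 was nearest to Lcn2, Tmem176b and Cp (0.982 to 0.994), Orm1 to Ambp, Hp and Fgl1 (0.986 to 0.995), and Hpx to Hp, C4bp and Apcs (0.983 to 0.996). Saa3 was nearest to Enpp3, Cp and Pld1 (0.933 to 0.949), and Orm3 to Prg4, Igsf11 and Nup210 (0.915 to 0.932). Saa4 was nearest to Crp, Arl8b and Il1r1 (0.861 to 0.919). Like Saa3 and Orm3, it had none of the other 9 genes among its nearest 3.

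Lcn2 and Saa3 are also expressed by neutrophils and macrophages. The 9 neutrophil markers measured summed to 0.513 to 1.02 CPM in WT vehicle, 9.63, 5.35 and 1.08 CPM in WT tunicamycin 1 to 3, 1.18, 3.36 and 1.54 CPM in LKO vehicle and 4.67 to 10.3 CPM in LKO tunicamycin. The 7 samples high in Saa1 were thus also the 7 highest in neutrophil markers, although these amounted to 33 to 79 reads there. S100a8, the most abundant, had at most 35 reads, and Camp was at 0 reads in 11 of the 13 samples, Mpo and Elane each in 10. Kupffer cell and macrophage markers, 10 genes, summed to 47.4 to 58.6, 52.2 to 71.7, 36.6 to 64.3 and 57.6 to 109 CPM in WT livers with vehicle and with tunicamycin and in LKO livers with vehicle and with tunicamycin, and bile duct markers, 6 genes, to 8.60 to 11.7, 8.49 to 42.5, 17.7 to 55.4 and 36.1 to 111 CPM. Most of the bile duct sum was Spp1, with 104.9 of the 111.3 CPM in LKO tunicamycin 1, while the other 5 markers together stayed between 2.16 and 6.88 CPM in all samples, and Krt19, Krt7, Epcam and Cftr had at most 14 reads and were at 0 in 2 to 6 samples. Lymphocyte markers stayed between 0.413 and 1.90 CPM in all samples. The part of these cells in the levels of Lcn2 and Saa3 was not tested.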

How the data were processed

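Polyadenylated liver RNA was sequenced in 14 libraries. The ribosomal RNA precursor Rn45s nevertheless took 72.5 to 75.5% of the reads on genes, and the reason was not tested. The authors deposited 1 table of whole read counts per gene for each library, in the layout that STAR writes, and 1 table of FPKM values for all libraries. Trimmomatic, STAR, Cufflinks and mm10 are named in the submitters' processing notes, which give no versions here. Counts on the gene's strand were used, since 99.5 to 99.6% of stranded reads fell there. Multimapping reads, 10.9 to 13.6% of mapped reads, are not in the gene counts, which can lower values of near copies.

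Counts were fitted with edgeR 4.0.16 in R 4.3.3 (TMM, filterByExpr by group, quasi-likelihood test, 1 mean per group, 9 residual degrees of freedom, common biological coefficient of variation 0.155), and p-values were adjusted by the Benjamini-Hochberg method over all 9644 genes tested. A gene was called at an adjusted p under 0.05. Alternatives were DESeq2 1.42.0, limma 3.58.1 on log2(FPKM + 1) or log2(FPKM + 0.1), total count scaling, no filter, unstranded counts, 14 separate libraries, summed near copies, a replicate block, only the groups compared, and leaving out each sample. A fit without Rn45s was added after the data had been seen. Of the 24886 entries of the FPKM table, 277 repeated names were not used. Fits were tested on simulated data.

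The members and all lists were chosen with earlier results of these data known. Besides the members, the genes named are those of the lists called in any contrast, the 3 most abundant of each list, Crp, Apcs, Hamp, Lbp, Serpina3n, Il6, Stat3, Socs3, Creb3l3, Hspa5 and Rbbp5, and the 3 genes most like each member. Of the genes this rule names, Sdf2l1 and Xbp1 also rose in WT liver after tunicamycin (log2 fold change 1.69 ± 0.28 and 0.76 ± 0.16, adjusted p = 0.0170 and 0.0465 in edgeR).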

Additional observations from a re-analysis of the deposited data

Results flagged for a closer look

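Of 38 combinations of a named gene and a group of 4 samples, 1 had a sample far from the others. Socs3 in LKO tunicamycin 2 stood at 2.60 CPM (20 reads), against 1.47 to 1.63 CPM (11 to 15 reads) in the other 3 samples of its group. The difference thus rests on few reads. The gap to the nearest sample was 0.857 of the group's range, where 0.829 is the critical value of Dixon's test for 4 samples, and chance gives such a sample in about 1 group in 20. LKO tunicamycin 2 was also the highest sample in Saa1, Saa2, Orm2 and Lcn2. Groups of 3 samples were not tested in this way, so WT tunicamycin 3 and LKO vehicle 2 are outside this check.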

How the results depend on the processing

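The number of the 10 genes called for tunicamycin in WT was 1 as reported, with the share of all genes called at 0.363%. With that share in brackets, the number was 6 with 14 separate libraries (0.578%), 7 with DESeq2 (1.56%) and 6 with total count scaling (1.53%). Without the filter it was 8 (1.78%), with unstranded counts 5 (0.549%) and, chosen after seeing the data, without Rn45s 3 (0.508%). Under the 3 FPKM settings it was 0 (0.0, 0.0 and 0.0667%). With only the 2 groups compared it was 0 (0.0795%), as with the replicate block (0.394%). Leaving out each of the 13 samples gave 0 to 9, against 0.0 to 6.19% of all genes. The cause was not tested. All 245 estimates of the 10 genes in that comparison stayed positive. Without the filter, 4 genes were called for tunicamycin in LKO, 4 for LKO against WT with vehicle and 1 (Saa4) after tunicamycin. The shares of all genes there were 0.941, 0.517 and 1.61%. In the same comparisons, leaving out 1 sample gave 0 to 2, 0 to 2 and 0 to 1. The shares of all genes in those fits were 0.0 to 0.674%, 0.0 to 0.171% and 0.0 to 1.84%. The difference between tunicamycin effects gave 0 called in every fit, against 0.0 to 0.0201% of all genes. With total count scaling the median of all genes was -0.177 for tunicamycin in WT, 0.140 for LKO against WT after tunicamycin and 0.127 for the difference between effects. Over all genes, 35 were called for tunicamycin in WT, 3 in LKO, 4 between genotypes with vehicle and 83 between genotypes after tunicamycin, against 150, 35, 20 and 138 with DESeq2, 289, 153, 84 and 261 without the filter, 148, 3, 8 and 164 with total count scaling, and 38, 5, 0 and 32 with the replicate block. Of the genes called for tunicamycin in WT, 28 of 35 were higher, against 103 of 150 with DESeq2 and 33 of 148 with total count scaling. Of those called between genotypes after tunicamycin, 30 of 83 were higher in LKO, against 142 of 164 with total count scaling.

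After tunicamycin, LKO against WT ranged, with 1 sample left out in turn, from -0.031 to 0.91 for Saa1, -0.25 to 0.54 for Orm1, -0.34 to 0.47 for Hp and -0.29 to 0.43 for Hpx. The difference between effects ran from -1.51 to 0.86 for Saa3 and -1.98 to 0.58 for Orm3. For Saa3 it was positive in 13 of 24 alternatives, 6 of them with 1 sample left out. It was 0.00555 with 14 libraries, 0.12 with DESeq2 and with total count scaling, 0.77, 0.62 and 0.77 under the FPKM settings (pseudocounts 1 and 0.1, and 1 with a minimum) and 0.29 with the replicate block.

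Titles number the replicates. The 18 same-numbered pairs correlated at -0.118 to 0.141, and pairs with different numbers at -0.221 to 0.202. Groups this small cannot settle whether the numbers mark pairs, and the main fit did not take them as pairs. With the replicate block the estimate of Hpx, tunicamycin against vehicle in WT, was 1.88 and was no longer called (adjusted p = 0.0662 in edgeR). Depth limits Saa3 and Orm3, which had as few as 3 reads in a sample.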
